A study of Mus musculus with 6 samples.

Results

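The genes described here are 60 genes of limb patterning and chondrogenesis, taken from the 22225 protein-coding genes of the GENCODE annotation of the mouse genome build mm9. They were listed by name for their roles in the limb bud and in cartilage, with earlier results of these data known, and peaks were counted within 25 kb and within 100 kb of each gene body, with no cutoff on peak strength. The peaks come from ChIRP-seq (chromatin isolation by RNA purification), in which biotin-labelled DNA probes pull down the chromatin that an RNA contacts. The RNA was *LncRNA-HIT*, a long noncoding RNA of the HoxA cluster that the sample labels call Hotchon. Limb chromatin came from the distal limb buds of Swiss Webster embryos at E 11.0, pooled from many buds per assay and fixed with glutaraldehyde. Control chromatin came from a murine glial cell line that the study describes as lacking the RNA, and for which the labels and the protocol give different stages. Each tissue had 1 library from an odd probe set, 1 from an even probe set and 1 input library, which makes 6 libraries in all. The odd and even tracks were merged before peaks were called, so that each tissue has 1 peak list, of 2880 limb peaks and of 2919 glial peaks. The merged lists hold no replicates, so no test of limb against glial was possible from them. The values below describe these lists, and how many reads lie behind each peak is not known. The lists hold no expression values, so the labelled tissues could not be checked against marker genes.

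In the early limb bud, FGFs from the apical ectodermal ridge, *Shh* from the posterior mesenchyme and Wnt signals from the dorsal ectoderm set the axes of the limb, and T-box, Meis, Pbx and other homeobox factors give limb cells their identity along these axes. Mesenchymal cells then condense, and *Sox9*, with *Sox5* and *Sox6*, turns on the genes of cartilage matrix, among them *Col2a1* and *Acan*. A ChIRP peak near such a gene marks chromatin recovered with the probes and does not by itself show that the RNA acts on that gene.

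In the limb list, 5 of the 24 peaks within 100 kb of a listed gene held a run of at least 12 bases identical to a ChIRP probe. This was 20.8% of these peaks, and the whole limb list had such a run in 228 of its 2880 peaks, or 7.92%. The stretches are shown because they relate the peaks near *Lef1*, *Tbx5*, *Sox6*, *Acan* and *Pbx2* to the probes that were used to pull down chromatin. Each stretch is given in the direction of its probe, 5′ to 3′, with capitals where its base equals that of the probe at the same position.

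Probe 5: accaaaaacctgtcctttca
*Lef1*, chr3:130784373-130784392, plus strand: ttCctAAACCTGTCCTTTCA
Probe 8: gtcaaggtcacaaattgtct
*Tbx5*, chr5:120237024-120237043, minus strand: GTCAAGGTCACAAgactgga
*Pbx2*, chr17:34736353-34736372, minus strand: GTCAAGGTCACAgtcccaCc
Probe 21: agattgcacaccattatggg
*Sox6*, chr7:122859548-122859567, minus strand: gataTGCACACCATTATaca
Probe 1: catttgccacagggagtctg
*Acan*, chr7:86164108-86164127, plus strand: CAgaTGCCACAGGGAGaggG

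The stretch upstream of *Lef1*, which codes for a transcription factor of the Wnt pathway, shared a run of 15 bases with probe 5 and was identical to it at 16 of 20 bases. Only 10 limb peaks, or 0.347% of the list, held a run of 15 or more bases, and 1 glial peak did. The same *Lef1* peak reached 15 of 20 identical bases with probes of both the odd and the even set, which 25 of the 2880 limb peaks did, or 0.868%. The peaks near *Tbx5*, a forelimb T-box factor, and near *Pbx2*, a cofactor of homeodomain proteins, shared runs of 13 and 12 bases with the 5′ end of probe 8. The peak in *Sox6* shared 13 bases with probe 21, and a peak upstream of *Acan*, the gene of the proteoglycan aggrecan, shared 12 bases with probe 1. By the looser measure of 15 of 20 identical bases, adjacent or not, 4 of the 24 peaks matched a probe, or 16.7%, and the whole list stood at 18.0%. None of the 17 glial peaks within 100 kb of a listed gene held a run of 12 bases, and 2.77% of the whole glial list did. Whether likeness to a probe had a part in these peaks was not tested.

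Other limb peaks at listed genes are shown by a stretch of 200 bases on the plus strand, because they lie in or near genes on which the counts below turn. Capitals mark the longest run identical to a probe on either strand, which was 8 to 10 bases here. The median longest run over the limb list was 9 bases.

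*Ptch1* intron, chr13:63648055-63648254: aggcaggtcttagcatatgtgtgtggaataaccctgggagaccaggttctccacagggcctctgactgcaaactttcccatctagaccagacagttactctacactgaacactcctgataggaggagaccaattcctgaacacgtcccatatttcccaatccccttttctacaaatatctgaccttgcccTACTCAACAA
*Sox5* intron, chr6:144722425-144722624: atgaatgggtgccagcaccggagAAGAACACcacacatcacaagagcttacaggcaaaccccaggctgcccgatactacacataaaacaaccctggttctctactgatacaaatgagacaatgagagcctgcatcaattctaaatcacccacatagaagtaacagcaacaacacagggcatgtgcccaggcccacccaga
*Tgfbr2* intron, chr9:116014785-116014984: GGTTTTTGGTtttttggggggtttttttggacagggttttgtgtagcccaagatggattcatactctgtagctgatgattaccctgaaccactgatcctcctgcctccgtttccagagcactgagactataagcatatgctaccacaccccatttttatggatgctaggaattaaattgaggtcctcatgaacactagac
*Smo* intron, chr6:29698705-29698904: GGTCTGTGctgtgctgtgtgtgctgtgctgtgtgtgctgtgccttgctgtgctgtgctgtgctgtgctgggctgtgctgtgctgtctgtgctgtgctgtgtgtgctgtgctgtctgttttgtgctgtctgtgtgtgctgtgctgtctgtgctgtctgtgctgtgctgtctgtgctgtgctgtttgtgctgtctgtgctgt
*En1* upstream, chr1:122451437-122451636: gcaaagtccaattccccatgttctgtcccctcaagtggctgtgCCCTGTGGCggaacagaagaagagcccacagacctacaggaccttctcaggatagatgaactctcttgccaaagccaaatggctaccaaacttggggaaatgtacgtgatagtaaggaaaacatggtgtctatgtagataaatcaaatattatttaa

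The share of listed genes with a limb peak close by was near that of genes of like length. Within 25 kb, 7 of the 60 genes had a limb peak (11.7%), and these were *Sox5*, *Sox6*, *Col11a1*, *Ptch1*, *Smo*, *Pbx2* and *Tgfbr2*. Over all protein-coding genes the share was 9.97%, and over genes of like length it was 12.1%. The share at like length is the mean, over the listed genes, of the share in each gene's own class among 10 classes of gene length, and it is given because the listed genes were longer, with a median body of 25.4 kb against 15.5 kb over all protein-coding genes. With the glial list, 11 of the 60 genes had a peak within 25 kb (18.3%), against 8.7% of all protein-coding genes and 10.5% at like length. The listed genes thus had fewer limb than glial peaks within 25 kb, 8 peaks (95% exact Poisson interval 3.45 to 15.8) against 12 (6.20 to 21.0), and the intervals overlap. These intervals cover counting error only. Within 50 kb the order was reversed, with 15 limb and 13 glial peaks.

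Within 100 kb, 19 of the 60 genes had a limb peak (31.7%), against 24% of all protein-coding genes and 26.5% at like length. A glial peak lay within 100 kb of 16 genes (26.7%), against 21% of all protein-coding genes and 22.8% at like length. The peaks numbered 24 in the limb list (15.4 to 35.7) and 17 in the glial list (9.90 to 27.2), and the intervals again overlap. At the like-length shares, 15.9 of 60 genes would have had a limb peak and 13.7 a glial peak.

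**Figure D1:**
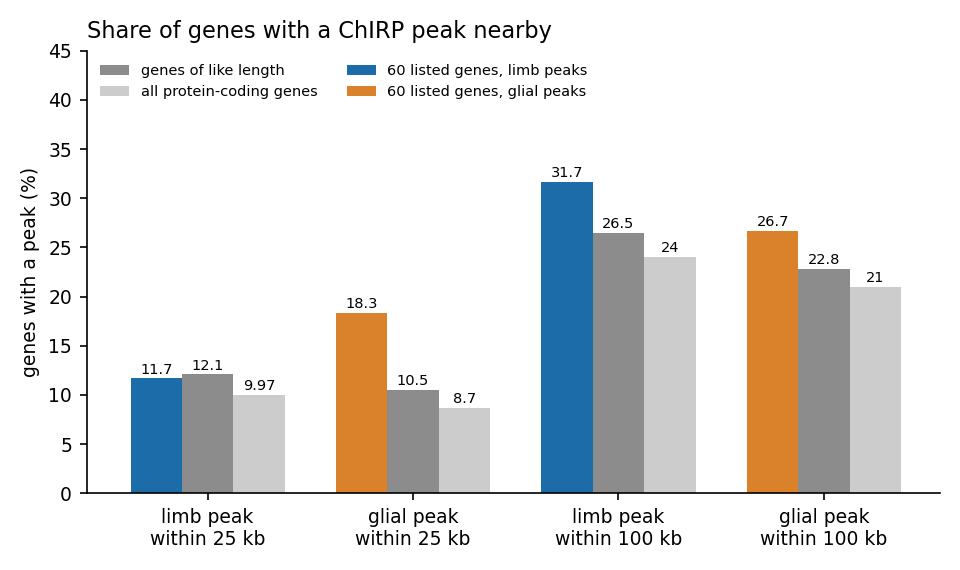
Percentage of genes with at least 1 ChIRP peak within 25 kb or 100 kb of the gene body, for the 60 listed genes (coloured bars), for protein-coding genes of like length (dark grey) and for all protein-coding genes (light grey). The merged lists hold no replicates, and there are no error bars. The limb bar at 25 kb (11.7%) stands below the like-length bar (12.1%), and the glial bar at 25 kb (18.3%) stands above its own (10.5%).

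The count for *Fgfr2*, a receptor for ridge FGFs, depends on the annotation. Its gene record in GENCODE spans 3009 kb and takes in 31 other protein-coding genes, because 1 transcript is tagged as read-through into distant genes. All other *Fgfr2* transcripts lie within 104 kb, at chr7:137306026-137410322. For 42 protein-coding genes, of which *Fgfr2* was the only listed gene, the body was therefore taken as the span of the transcripts that are not read-through. This choice was made after the counts were seen. With the full record, *Fgfr2* alone would have added 8 limb peaks and 5 glial peaks, raising the limb peaks within 25 kb of a listed gene from 8 to 16 and the glial peaks from 12 to 17. With the shorter body, the nearest limb peak to *Fgfr2* lay 195 kb away, and its nearest glial peak, of −log10(p) 9.07, lay 50.5 kb downstream.

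By list, 5 of the genes had a limb peak and no glial peak within 25 kb (8.33%, against 8.2% of all protein-coding genes and 9.67% at like length), namely *Col11a1*, *Pbx2*, *Ptch1*, *Sox5* and *Tgfbr2*. A glial peak and no limb peak lay within 25 kb of 9 genes (15%, against 6.93% and 8.06%), namely *Alx4*, *Comp*, *Fgfr1*, *Gli3*, *Lmx1b*, *Meis1*, *Pbx3*, *Smad4* and *Tbx4*. *Smo* and *Sox6* had peaks of both lists (3.33%, against 1.76% and 2.41%). The other 44 genes had neither (73.3%), as did 83.1% of all protein-coding genes and 79.9% at like length. The study set its first threshold at a p-value of 5.9e-57, which is a −log10(p) of 56.2. At this threshold 0 of the 60 genes had a limb peak within 25 kb, where 2.85% of all protein-coding genes did, and 2 of the 60 genes, *Smo* and *Smad4*, had a glial peak (3.33%, against 2.21%). Within 100 kb, 6 genes had a limb peak at the threshold (10%) and 4 had a glial peak (6.67%), and at like length the shares were 8.16% and 6.01%.

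**Figure D2:**
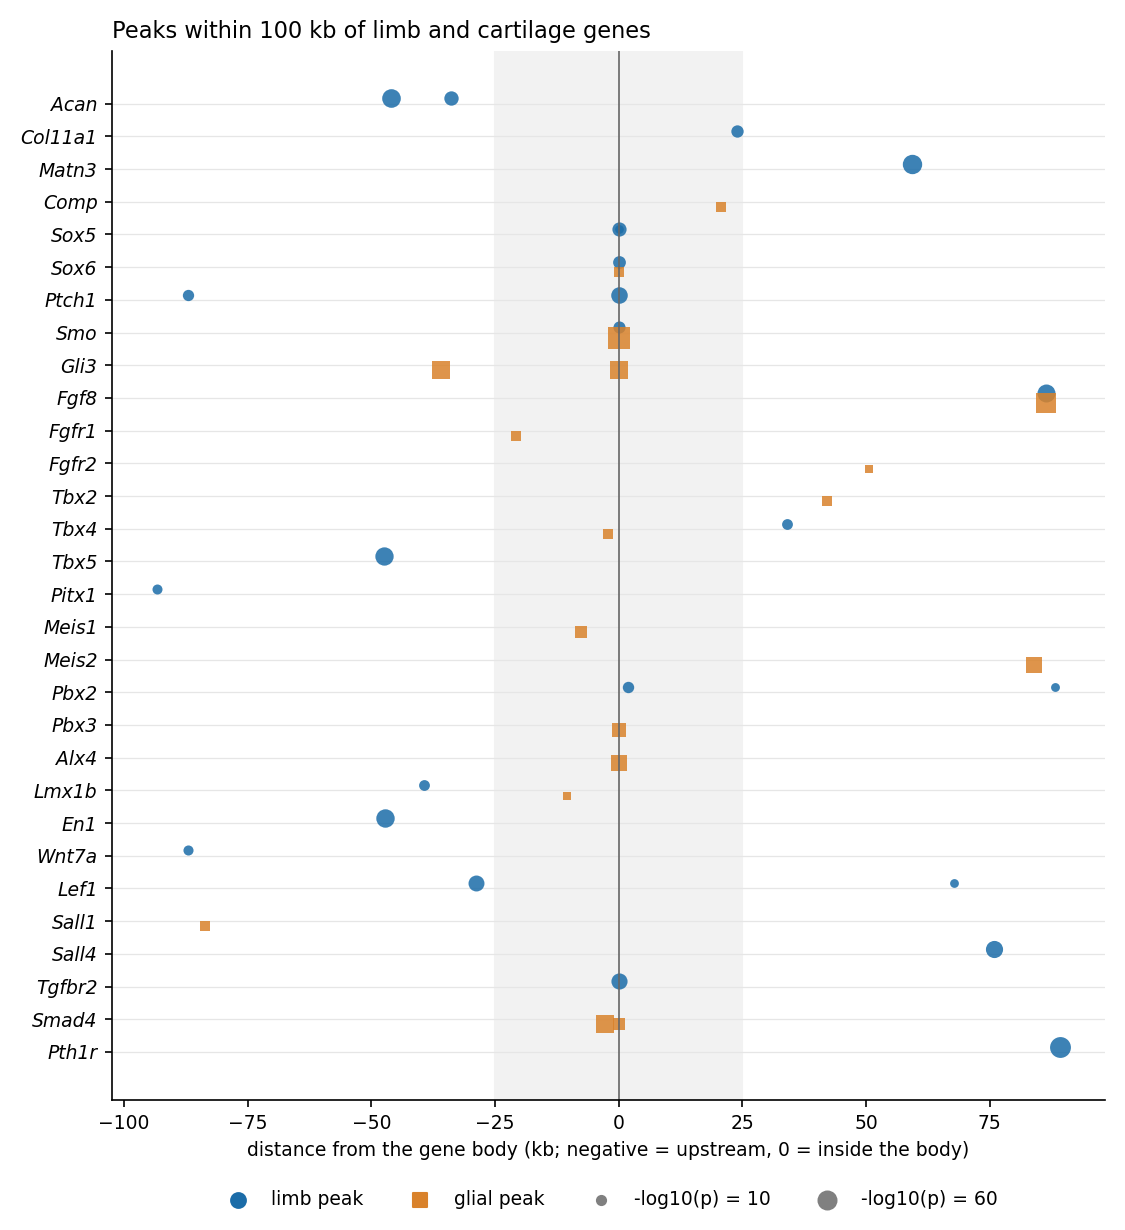
Position of each limb peak (blue circles) and glial peak (orange squares) within 100 kb of a listed gene, for the 30 genes with any, as the distance in kb from the gene body (negative upstream, 0 inside). Symbol area grows with −log10(p) up to 100, the shaded band is 25 kb on either side, and the 2 limb peaks in *Sox5* lie on top of each other. The large blue circles of *Acan*, *Matn3*, *Fgf8*, *Tbx5*, *En1* and *Pth1r* all lie outside the band.

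Among the genes of cartilage matrix, *Col11a1*, which codes for a chain of the minor fibrillar collagen XI, was the only gene of 8 with a limb peak within 25 kb, where the share at like length was 12.2%. This peak lay 23.9 kb downstream of the gene, with a −log10(p) of 24.6 and rank 1814 of the 2880 limb peaks. *Acan* had a pair of limb peaks upstream, at 34.0 kb with a −log10(p) of 35.9 and at 46.0 kb with 65.5, and its nearest glial peak was 317 kb away. Repeated sequence made up 66.3% of the stronger *Acan* peak, measured as the share of its 24-base words found more than once in the genome. Copies within the same peak count as well. *Matn3*, the gene of the matrix protein matrilin 3, had a limb peak of 71.4 at 59.3 kb downstream, within the neighbouring gene *Ttc32*. *Comp*, the gene of cartilage oligomeric matrix protein, had no limb peak within 100 kb and a glial peak of 11.2 at 20.6 kb downstream, within *Crtc1*. *Col2a1*, *Col9a1*, *Col11a2* and *Matn1* had no peak of either list within 100 kb. Within 100 kb, 3 of the 8 genes had a limb peak and 1 had a glial peak, against 26.6% and 23.1% at like length. *Col2a1*, the gene of the main collagen of cartilage, was 437 kb from its nearest limb peak and 553 kb from its nearest glial peak.

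Of the 8 cartilage and skeletal transcription factors, *Sox5* and *Sox6* had limb peaks within 25 kb, all in introns, and the share at like length was 15.96%. *Sox5* had peaks of 34.9, at 7.97 kb from its annotated start, and of 8.71, at 240 kb from the start, and its nearest glial peak lay 736 kb away. *Sox6* had a limb peak of 26.9 and, at another position in its introns, a glial peak of 14.2. These were the longest bodies in the list, of 954 kb for *Sox5* and 567 kb for *Sox6*. In the class of longest genes, above 106 kb, 27.1% of all protein-coding genes had a limb peak within 25 kb, and 3 of the 10 listed genes in that class did. *Sox9*, which is required for cartilage to form, was 413 kb from its nearest limb peak and 1853 kb from its nearest glial peak. *Runx2*, *Runx3*, *Barx2*, *Nkx3-2* and *Shox2* had no peak of either list within 100 kb, and their limb distances ran from 153 kb for *Barx2* to 667 kb for *Runx2*.

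In the hedgehog pathway, *Ptch1*, the receptor that restrains the pathway until a ligand binds, had an intronic limb peak of 50.2, the strongest limb peak within 25 kb of any listed gene, at rank 990 of the list. A second limb peak of 19.5 lay 87.1 kb upstream of *Ptch1*, and its nearest glial peak was 647 kb away. *Smo*, the membrane protein that *Ptch1* restrains, had a limb peak of 23.4 in an intron that overlapped a glial peak of 249. The glial peak ranked 16 of 2919 and the limb peak ranked 1871 of 2880. Repeated words made up 65.1% of the limb peak and 79.0% of the glial peak. The sequence shown for *Smo* is built of near-copies of one short unit. The motif TGTGCTG, counted on the strand with more copies and allowing overlaps, occurred 69 times in the 548 bases of the limb peak and 187 times in the 1383 bases of the glial peak. At least 10 copies were found in 5 limb peaks (0.174%) and 8 glial peaks (0.274%), while at least 1 copy was found in 11.2% of limb peaks and 10.5% of glial peaks, which vary in width. *Gli3*, a transcription factor that in its repressor form limits pathway output, had glial peaks only, of 53.3 in an intron and of 58.2 at 35.9 kb upstream, and its nearest limb peak lay 1352 kb away. Limb peaks within 25 kb were thus found at 2 of the 6 hedgehog genes, as were glial peaks, against 12.3% and 10.2% at like length. The ligands *Shh* and *Ihh* and the factor *Gli1* had no peak of either list within 100 kb. *Shh* was 722 kb from its nearest limb peak and 367 kb from its nearest glial peak.

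Of the FGF genes, *Fgf8*, a ridge ligand, had a limb peak of 60.7 and a glial peak of 78.9 that overlapped each other, 86.4 kb downstream in *Fbxw4*. It was the only limb peak at the study threshold near a listed gene that overlapped a glial peak. *Fgfr1* had a glial peak of 16.6 at 20.9 kb upstream, and its nearest limb peak, at 101 kb, was just beyond the limit of 100 kb. Within 100 kb, 1 of the 6 FGF genes had a limb peak and 3 had a glial peak, against 27.2% and 23.1% at like length, and *Fgf4*, *Fgf10* and *Fgfr3* had neither. *Fgf10*, the mesenchymal ligand that maintains the ridge, was 698 kb from a limb peak and 6899 kb from a glial peak, the largest distance in either list.

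Among the factors of limb identity and of the proximodistal axis, *Pbx2* had the only limb peak within 25 kb, a peak of 19.9 at 1.88 kb downstream that overlapped an exon of *Ager*, and a second of 9.16 at 88.1 kb downstream in *Tnxb*. *Tbx5* had a limb peak of 63.0 at 47.4 kb upstream, with 0.260% repeated words, and its nearest glial peak lay 868 kb away. The hindlimb factor *Tbx4* had a limb peak of 17.3 at 34.0 kb downstream and a glial peak of 13.9 at 2.23 kb upstream. The same glial peak was 42.0 kb downstream of *Tbx2*, which lies 44.5 kb from *Tbx4*. *Pitx1*, which sets hindlimb identity, had a limb peak of 13.7 at 93.3 kb upstream. The Meis and Pbx genes other than *Pbx2* had glial peaks only within 100 kb, of 23.8 at 7.56 kb upstream of *Meis1*, of 48.3 at 83.9 kb downstream of *Meis2* and of 37.9 in an intron of *Pbx3*. Within 25 kb, 1 of these 9 genes had a limb peak and 3 had a glial peak, against 14.5% and 12.7% at like length. Within 100 kb, 4 had a limb peak and 5 had a glial peak, against 28.1% and 24.6%. *Tbx3* had none, and its nearest limb peak, at 102 kb, was the peak upstream of *Tbx5*.

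The mesenchymal homeobox and bHLH factors act in limb bud outgrowth and patterning of the mesenchyme. None of these 9 genes had a limb peak within 100 kb, and 1, *Alx4*, had a glial peak, of 44.5 in an intron. At like length the shares within 100 kb were 22.9% for limb and 19.1% for glial peaks, and the listed group is small. The other 8 genes, *Hand2*, *Prrx1*, *Prrx2*, *Msx1*, *Msx2*, *Dlx5*, *Dlx6* and *Twist1*, were 119 kb (*Msx1*) to 2025 kb (*Dlx6*) from their nearest limb peak and 146 kb (*Msx1*) to 3496 kb (*Msx2*) from their nearest glial peak. *Dlx5* and *Dlx6* are neighbours, 9.24 kb apart, and share these distances almost entirely.

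Of the 10 Wnt, dorsoventral and ridge factors, 0 had a limb peak within 25 kb and 5 had one between 25 and 100 kb. At like length, 10.5% of genes had a limb peak within 25 kb and 25.1% within 100 kb. *En1*, which specifies the ventral ectoderm, had a limb peak of 63.8 at 47.2 kb upstream with no glial peak within 408 kb. *Lef1* had the peak of 46.1 at 28.9 kb upstream described above, and another of 8.92 at 67.8 kb downstream in *Cyp2u1*. *Sall4*, a zinc finger factor, had a limb peak of 54.4 at 75.8 kb downstream in *Atp9a*. *Wnt7a*, the dorsal ectodermal signal, had a limb peak of 14.03 at 87.0 kb upstream in *Xpc*. *Lmx1b*, the factor that gives dorsal identity to the mesenchyme, had a limb peak of 17.2 at 39.4 kb and a glial peak of 9.12 at 10.5 kb, both upstream. *Sall1* had a glial peak of 15.1 at 83.6 kb upstream and its nearest limb peak was 1001 kb away, and *Wnt5a*, *Wnt3*, *Sp8* and *Sp9* had no peak of either list within 100 kb.

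In the last group, *Tgfbr2*, a receptor for TGF-beta ligands, had an intronic limb peak of 47.4, with its nearest glial peak 308 kb away. *Smad4*, the common partner of receptor-activated Smads, had glial peaks of 60.2 at 2.74 kb upstream and of 19.5 in an intron, and its nearest limb peak was 109 kb away. *Pth1r*, the receptor for parathyroid hormone-related protein, had the strongest limb peak within 100 kb of any listed gene, of 83.9 at rank 207 of the list. It lay 89.1 kb downstream, over an exon of *Nbeal2*. Within 25 kb, 1 of these 4 genes had a limb peak and 1 had a glial peak, against 11.2% and 9.42% at like length. *Grem1*, a BMP antagonist, was 118 kb from a limb peak and 119 kb from a glial peak.

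**Figure D3:**
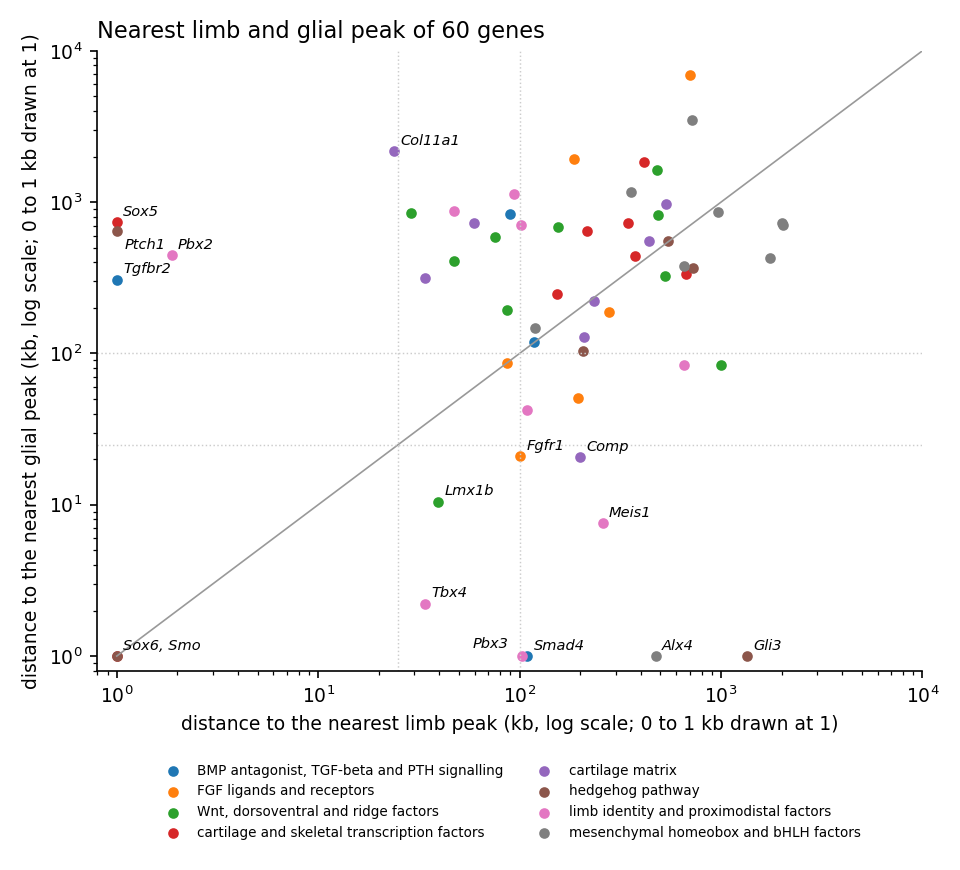
Distance in kb from each of the 60 gene bodies to its nearest limb peak (x axis) and nearest glial peak (y axis), both on log scales with distances under 1 kb drawn at 1, coloured by gene group. Dotted lines mark 25 and 100 kb, the diagonal marks equal distances, and genes with a peak within 25 kb are named; 32 points lie above the diagonal, nearer to a limb peak, and 26 below it.

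Across the 60 genes the median distance to the nearest limb peak was 198 kb, with a range from 0 to 2025 kb, and over all protein-coding genes it was 291 kb. The 95% binomial interval of the limb median, from the order of the 60 distances, ran from 103 to 359 kb and held the median of 291 kb. The median distance to the nearest glial peak was 393 kb, with a range from 0 to 6899 kb, and over all protein-coding genes it was 350 kb. The interval of the glial median, from 195 to 647 kb, held that value too. The genes were chosen by name and some neighbours share a nearest peak, so these intervals are no test against all protein-coding genes. In the length classes of the listed genes, the medians were 274 kb for limb and 340 kb for glial peaks. The nearest limb peak was closer than the nearest glial peak for 32 genes and farther for 26, and the distances were equal for 2 with peaks of both lists inside the body. The share with a closer limb peak, 53.3%, was the same as over all protein-coding genes, where it was also 53.3%.

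Of the 24 limb peaks within 100 kb of a listed gene, 6 lay in introns of that gene, 9 upstream and 9 downstream, and 8 lay within another protein-coding gene. Their median −log10(p) was 30.9, and the median of the whole list was 34.9. The 8 peaks within 25 kb had a median of 25.8 and ran from 8.71 to 50.2, all below the study threshold of 56.2. The 6 peaks at the threshold, 25% of the 24 against 26.9% of the whole list, all lay between 25 and 100 kb away. The 12 glial peaks within 25 kb had a median of 21.6 and ran from 9.12 to 249, and the median of the whole glial list was 32.5. Overlap with a glial peak was found for 2 of the 24 limb peaks (8.33%), those of *Smo* and *Fgf8*, and for 3.85% of the whole limb list. At least 10% repeated words were found in 7 of the 24 peaks (29.2%) and in 26.1% of the limb list.

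**Figure D4:**
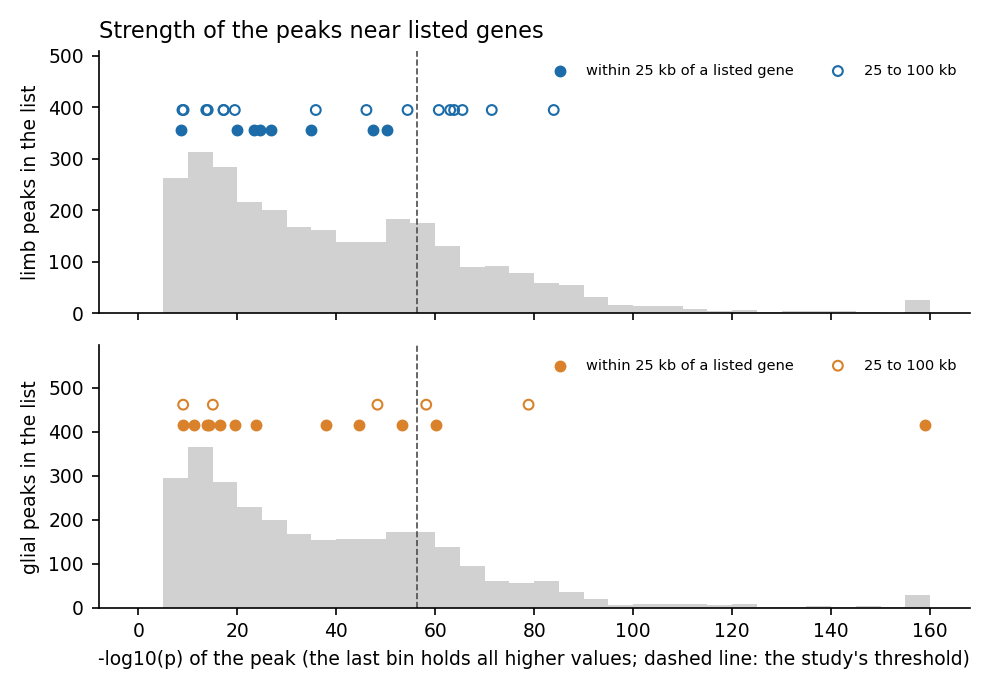
Number of peaks in the limb list (top) and glial list (bottom) by −log10(p), in bins of 5 with all higher values in the last bin. Symbols above each histogram mark the peaks within 25 kb (filled) and between 25 and 100 kb (open) of a listed gene, with their height carrying no value, and the dashed line is the study threshold. All 8 filled symbols of the limb panel lie left of that line.

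Further genes of the same pathways were counted in the same way. Of 85 such genes, 9 had a limb peak within 25 kb and 11 had a glial peak, and at like length the shares were 10.9% and 9.61%. By list, a limb peak was near 1 of 24 cartilage genes and a glial peak near 4, against 12.1% and 10.7% at like length. The counts were 1 and 1 of 11 FGF genes, against 8.51% and 7.25%, and 3 and 2 of 19 Wnt and TGF-beta genes, against 11.5% and 10.0%. The counts of the remaining pathway lists are not reported here. Among those with a limb peak were *Zbtb20* of the cartilage genes, the hedgehog gene *Gli2*, *Etv4*, which is a target of FGF signalling, and *Ctnnb1*, *Sfrp2* and *Smad3* of the Wnt and TGF-beta pathways. Several of these peaks were stronger than any within 25 kb of the 60 genes. *Gli2*, the main activator of hedgehog targets, had a limb peak of 74.9 inside the gene, at rank 333. *Smad3*, which carries TGF-beta signals to the nucleus, had a limb peak of 65.6 at 21.4 kb, and *Etv4* had one of 60.6 at 16.5 kb. *Ctnnb1*, the gene of beta-catenin, and *Sfrp2*, a secreted Wnt antagonist, had limb peaks of 59.9 and 59.6 inside the gene. None of these named limb peaks overlapped a glial peak. In *Gli2* a glial peak of 9.45 lay elsewhere in the body. *Zbtb20* had a limb peak of 26.995 and, elsewhere in the body, a glial peak of 44.7. Within the TGF-beta genes, *Smad2* had a glial peak of 118 in which 81.5% of words were repeated. Of 20 genes of glial and neural cells, which stand for the control line, 1 had a limb peak within 25 kb, *Slc1a2*, a glutamate transporter, and 0 had a glial peak, against 10.7% and 9.12% at like length.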

How the data were processed

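For the limb and glial ChIRP-seq libraries, the authors aligned reads to mm9 with Bowtie 0.12.9, kept unique alignments and scaled each library by its total reads. The lower of the odd and even values was kept at each position. Peaks were then called against input with MACS, whose version is not given in the sources used here. From the deposited lists, the position and MACS score of every peak were read, and the score, a negative log10 of p multiplied by 10, was divided by 10. A deposited text with no other values gave the sequences of the 25 probes. Depth per library is unknown, so reads behind a peak could not be compared between tissues, and a deeper library could pass more peaks.

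Gene bodies came from GENCODE M1 on the same build, with the longest record per symbol on chromosomes 1 to 19, X and Y, and without transcripts tagged as read-through. All 25 probes were found between *Hoxa11* and *Hoxa13* in the reference and 0 peaks ended beyond their chromosome. Distance is the number of bases between the nearest ends. Like-length shares used 10 classes of equal gene number. Probes were compared without gaps on both strands, and repeated words are 24-base words found more than once in the genome. The members, pathway lists and measures were chosen with earlier results of these data known. All listed members are named, as are pathway genes with a limb peak within 25 kb, except some that are not reported here; *Slc1a2* and *Smad2* fall under no such rule, or were singled out after their values were seen. Of the 86 other pathway genes listed, 85 were found by symbol. Alternatives were other distances, p-values, anchors, overlaps, length classes and match lengths. The counting was tested on simulated data. Signal tracks were not analysed here. Python 3.11.15, numpy 2.4.6, scipy 1.17.1 and matplotlib 3.10.9 were used.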

Additional observations from a re-analysis of the deposited data

How the results depend on the processing

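No paired analysis was possible because the files used here hold 1 list per tissue, in which the odd and even probe sets are already merged, and for the same reason no replicate could be left out. Separate odd and even tracks were not analysed here. Of 100 alternative values of 16 results, 65 stayed within 1.5 times the reported count or inside a 95% interval, and 35 did not. For the like-length shares, this was the interval of a plain proportion over 22225 genes. It does not account for the averaging over length classes. At the study threshold, the genes with a limb peak fell from 7 to 0 within 25 kb and from 19 to 6 within 100 kb, and the limb peaks from 8 to 0 and from 24 to 6. The genes with a glial peak fell from 11 to 2 and from 16 to 4, and the glial peaks from 12 to 2 and from 17 to 4. The like-length shares fell to 3.42% and 8.16% for limb peaks and to 2.73% and 6.01% for glial peaks, and the median distances rose to 966 kb and 1565 kb, since fewer peaks were left. At p-values of 1e-30 or smaller, limb peaks were left at 3 genes within 25 kb and 11 within 100 kb (3 and 12 peaks), and glial peaks at 5 and 7 genes (5 and 8 peaks). Shares over all protein-coding genes and at like length were not computed at this cutoff. Measured from the transcription start, 3 genes had a limb peak within 25 kb (3 peaks) and 7 a glial peak. The shares over all protein-coding genes and at like length were not computed from this anchor. With 50 kb in place of 25 kb, 13 genes had a limb peak (15 peaks) and 12 a glial peak, and the shares over all protein-coding genes were not computed at this distance. Without peaks of at least 10% repeated words, 5 limb peaks were left within 25 kb, and within 100 kb 10 genes had 11 glial peaks. Without genes over 200 kb, 5 limb peaks were left within 25 kb. For neither of these settings were the shares over all protein-coding genes computed. With 20 length classes, the like-length shares within 25 kb were 12.7% for limb and 11.0% for glial peaks. The read-through record of *Fgfr2*, an alternative chosen after seeing the data, gave 16 limb peaks within 25 kb, 32 limb peaks within 100 kb, and 20 genes with a limb peak within 100 kb. A match of 14 of 20 bases to a probe was found in 15 of the 24 limb peaks, and 61.8% of the whole limb list had one. Overlap with glial peaks stayed at 2 limb peaks under each overlap rule tried. Depth limits all counts in an unknown way.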
